A study of Macaca mulatta with 449 samples.

Results

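The neurofilament genes are the 5 genes that encode the intermediate filament proteins of neurons: NEFL (light chain, ENSMMUG00000003348), NEFM (medium chain, ENSMMUG00000000639), NEFH (heavy chain, ENSMMUG00000005451), INA (alpha-internexin, ENSMMUG00000008872) and PRPH (peripherin, ENSMMUG00000031976). They were taken by symbol as rows of a table of read counts for 30807 genes, and all 5 were found. The table covers RNA, freed of ribosomal RNA, from 51 brain sub-regions of each of 8 rhesus macaques, with 7784678 to 31083490 counts per sample (median 10698602). The sub-regions were 31 areas of cerebral cortex and 20 other structures, and they fell into 16 region groups. The brainstem was represented by the medulla oblongata (MO), the pons (PON), the substantia nigra (SN) and the ventral tegmental area (VTA). No further midbrain tissue was analysed here. Rhesus 2, Rhesus 3 (both 10 years old), Rhesus 7 (4 years) and Rhesus 8 (3.8 years) were males, and Rhesus 4 (3.2 years), Rhesus 6 (10 years), Rhesus 10 (5 years) and Rhesus 11 (9.8 years) were females. The 4 animals of at most 5 years were the young group and the other 4 the mid-aged group.

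Neurofilaments are the main intermediate filaments of axons, and they set axon calibre. They are heteropolymers: NEFL forms the core with NEFM, NEFH or INA, and the long, heavily phosphorylated tails of NEFM and NEFH project sideways from the filament. INA is a filament protein of central neurons that appears early in their development. PRPH is known from peripheral neurons and from those brainstem and spinal neurons that send axons out of the central nervous system. Large neurons with long, thick, myelinated axons, such as the giant pyramidal cells of motor cortex and the motor neurons of the brainstem, are textbook sites of high neurofilament content. In the RefSeq annotation of the assembly T2T-MMU8v2.0, NEFM and NEFL are neighbours with 0 annotated genes between them.

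Levels are given as CPM, a gene's count relative to the total of its library in the usual unit, after scaling of the library totals by the trimmed mean of M-values, as the mean ± SD over 8 animals. Each member is compared with itself between regions, since counts were not divided by gene length. In pieces of whole tissue, fewer cells of a type and less RNA per cell cannot be told apart. A difference between region groups was called at a false discovery rate (FDR) below 0.05 and a log2 fold change (log2FC) beyond 1 in either direction. Differences within the cortex were called at FDR below 0.05 alone. Unless DESeq2 is named, every FDR comes from edgeR's quasi-likelihood test with Benjamini-Hochberg adjustment over all genes tested. The animal was a block in comparisons of regions, except where stated, and not in those of age stage and sex.

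One library stood apart. The MO library of Rhesus 6 held 112 CPM of SNAP25, a synaptic protein gene of neurons, against 1773 to 4094 CPM in the MO of the other animals. The summed level of 8 neuron markers was 534 CPM there and 4997 to 7980 CPM in the other MO libraries, while MBP, the myelin basic protein gene, stood at 51580 CPM against 15231 to 42546 CPM. The levels, tests and ratios of MO include this library unless stated, and the main ones are therefore also given without it. In the hypothalamus (HTHA) of Rhesus 6, SNAP25 stood at 3963 CPM against 1304 to 1657 CPM in the other animals.

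The VTA libraries were also uneven. TH, the tyrosine hydroxylase gene that marks dopamine neurons, ran from 14.9 CPM (Rhesus 2) to 337 CPM (Rhesus 6) in VTA and from 794 to 1900 CPM in SN. SLC6A4, the serotonin transporter gene, ran from 0 (Rhesus 2) to 243 CPM (Rhesus 11) in VTA. SLC18A3, the vesicular acetylcholine transporter gene, ran from 0.0999 to 43.02 CPM in VTA. In PON, the choline acetyltransferase gene CHAT was at 0 in all 8 libraries, and the dopamine and serotonin markers TH, TPH2 and SLC6A4 were at most 0.397 CPM.

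All 5 members differed among the 16 region groups (F test), as did 99.7% of the genes tested. NEFL, NEFM, NEFH and INA shared their highest level in PON. NEFL and NEFM were lowest in the pituitary (PIT), and NEFH and INA in the corpus callosum (CC). PRPH followed another order, with its highest level in MO. The steps between neighbouring region groups were mostly within the spread of the animals: of 15 such steps, the mean log2 difference exceeded its SD with the same sign in all 8 animals in 2 for NEFL, 2 for NEFM, 4 for NEFH, 2 for INA and 0 for PRPH.

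**Figure D1:**
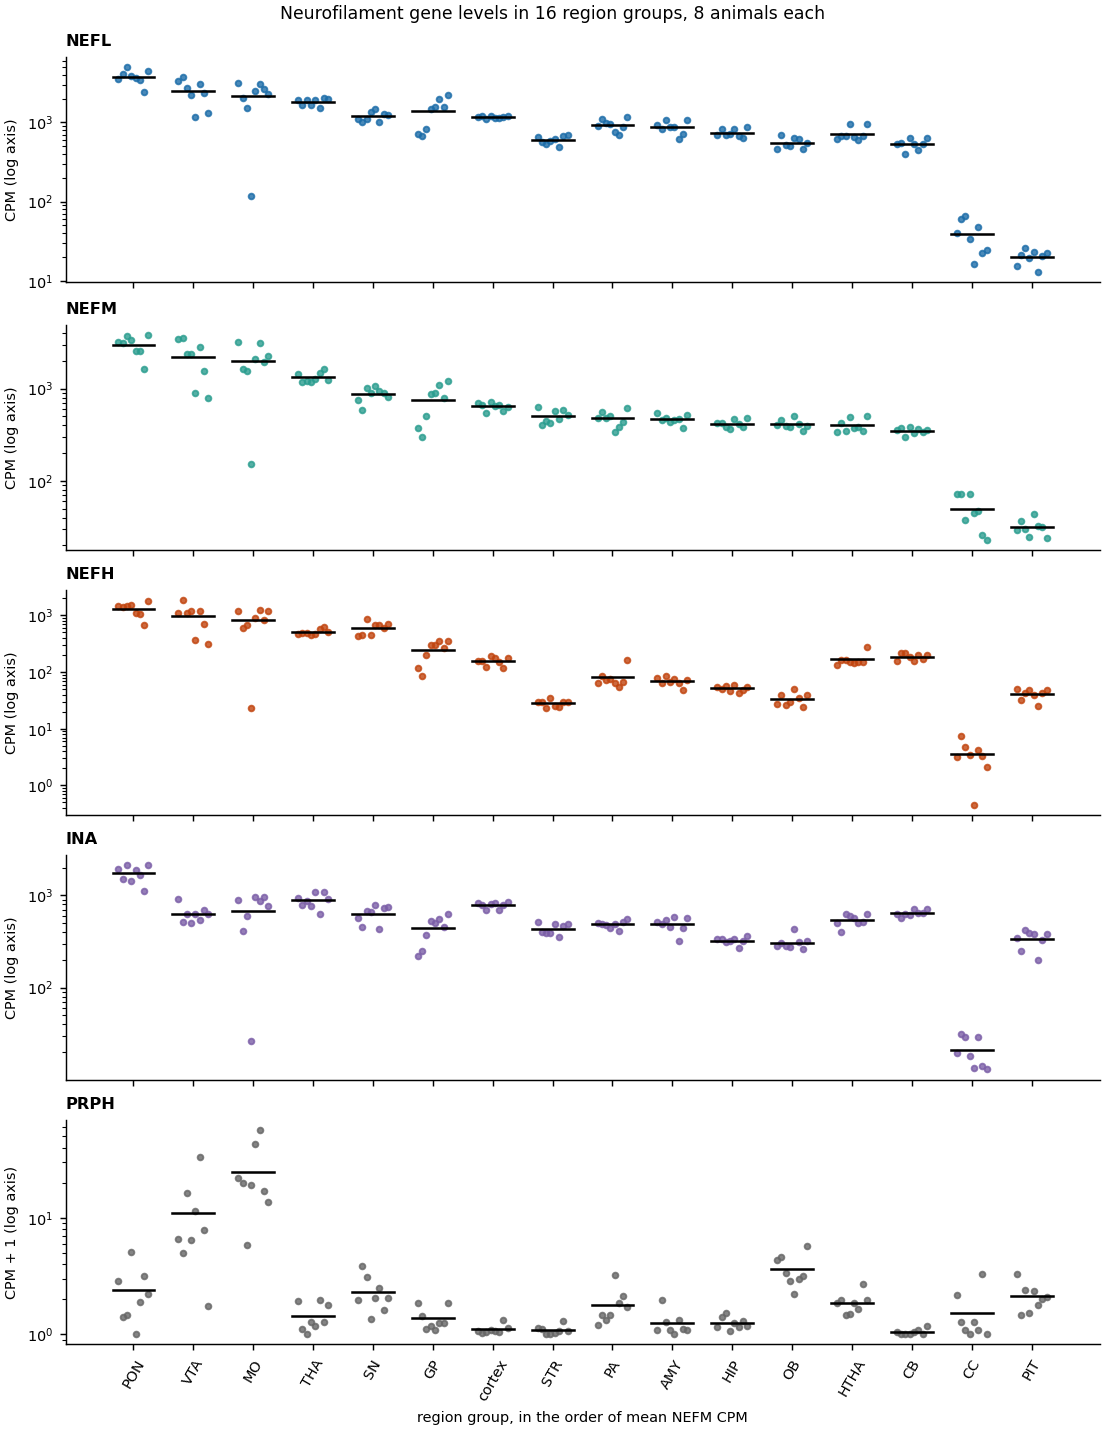
CPM (log axis; CPM + 1 for PRPH) of each member in 16 region groups, ordered by mean NEFM; each point is 1 animal and each bar the mean of 8. The 8 PON values of NEFM lie between 1620 and 3775 CPM, and the single low point in MO is Rhesus 6 (NEFM 153 CPM).

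NEFL, which encodes the chain that every neurofilament needs, was at 3808 ± 775 CPM in PON, with single animals between 2400 and 4984 CPM. Its level was 1165 ± 33.1 CPM in cortex, where the 8 animals lay between 1123 and 1206 CPM. VTA followed PON at 2489 ± 911 CPM, then MO at 2157 ± 983 CPM and the thalamus (THA) at 1835 ± 186 CPM. PON exceeded VTA by 0.69 ± 0.70 (SD of the log2 difference) in 8 of 8 animals, a step that was not larger than its SD. SN (1203 ± 172 CPM) could not be set apart from cortex, being higher in 4 of 8 animals. At the lower end, CC held 38.8 ± 18.05 CPM and PIT 20.1 ± 4.13 CPM of NEFL, and the drop from the cerebellum (CB, 537 ± 79.8 CPM) to CC was 3.88 ± 0.83 on the log2 scale in 8 of 8 animals.

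NEFM showed the same order at the top. It was at 3004 ± 717 CPM in PON, 2220 ± 1054 CPM in VTA, 1989 ± 959 CPM in MO and 1334 ± 171 CPM in THA, against 641 ± 56.7 CPM in cortex. THA exceeded SN (870.0 ± 151 CPM) by 0.63 ± 0.30 on the log2 scale in 8 of 8 animals. PIT was lowest at 31.6 ± 6.43 CPM.

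NEFH, the heavy chain, was also highest in PON. It stood at 1318 ± 342 CPM in PON, 981 ± 503 CPM in VTA, 832 ± 409.8 CPM in MO, 605 ± 153 CPM in SN and 511 ± 60.4 CPM in THA, against 156 ± 25.3 CPM in cortex. SN, which for NEFL lay at the level of cortex, was above cortex for NEFH in 8 of 8 animals, by 3.81-fold on average. The striatum (STR, 28.3 ± 3.98 CPM), the olfactory bulb (OB, 33.9 ± 8.81 CPM) and PIT (40.95 ± 8.75 CPM) were low, and CC was lowest at 3.61 ± 2.03 CPM, from 5 to 79 counts per library.

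INA did not follow the brainstem order. PON was highest at 1732 ± 359.8 CPM, 2.17-fold above cortex and higher in 8 of 8 animals, and the step from PON to THA (884 ± 156 CPM) was 0.96 ± 0.41 on the log2 scale. Cortex came next at 783 ± 59.4 CPM, above MO (682 ± 325 CPM), CB (645 ± 48.3 CPM), SN (633 ± 136 CPM) and VTA (632 ± 132 CPM). VTA was above cortex in 1 of 8 animals and SN in 0 of 8. CC was lowest at 21.05 ± 7.80 CPM, 3.87 ± 0.61 below OB on the log2 scale.

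PRPH had its highest levels in MO, VTA and OB. Over all cortical libraries it had 264 counts; 136 libraries had 0 and 229 at most 3, and the highest held 13. In 22 of 51 sub-regions, 18 of them cortical, no library exceeded 3 counts. MO held 23.8 ± 16.9 CPM (54 to 628 counts per library), VTA 10.1 ± 9.91 CPM (8 to 393 counts) and OB 2.65 ± 1.13 CPM (16 to 69 counts). PON, the highest region for the other 4 members, had 1.39 ± 1.305 CPM (0 to 51 counts), and 0 counts in Rhesus 7.

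Within the brainstem the members were also followed animal by animal. In MO, NEFL was at 3182 CPM in Rhesus 2, 2017 in Rhesus 3, 1523 in Rhesus 4, 118 in Rhesus 6, 2466 in Rhesus 7, 3052 in Rhesus 8, 2625 in Rhesus 10 and 2274 in Rhesus 11. All but Rhesus 6 were above the cortical level of every animal. Without Rhesus 6 the MO mean was 2448 ± 578 CPM for NEFL, 2251 ± 656 CPM for NEFM, 948 ± 267 CPM for NEFH and 776 ± 203 CPM for INA (n = 7). In the MO library of Rhesus 6, NEFM was at 153 CPM, NEFH at 23.6 CPM and INA at 26.5 CPM.

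PRPH behaved otherwise in that library: it was at 18.2 CPM, within the 4.89 to 56.0 CPM of the other 7. The MO values of PRPH were highest in Rhesus 8 (56.0 CPM) and Rhesus 7 (42.4 CPM) and lowest in Rhesus 4 (4.89 CPM). SLC18A3 in MO was likewise highest in Rhesus 8 (23.5 CPM) and Rhesus 7 (13.5 CPM), and stood at 0.362 CPM in Rhesus 4 and 0.0796 CPM in Rhesus 6. The serotonin marker TPH2 in MO was 46.8 CPM in Rhesus 8 and 0.272 to 12.3 CPM in the other animals. The part of these cell populations in the PRPH values was not tested.

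In VTA, NEFL, NEFM and NEFH were lowest in the same animals. NEFH was at 1851 CPM in Rhesus 3, 1213 in Rhesus 8, 1176 in Rhesus 6, 1109 in Rhesus 2, 1100 in Rhesus 4, 713 in Rhesus 10, 369 in Rhesus 7 and 316 in Rhesus 11. Rhesus 7 and Rhesus 11, the lowest for NEFH, were also the lowest for NEFL (1175 and 1314 CPM) and for NEFM (893 and 799 CPM). These same libraries had the highest SLC6A4 (139.5 CPM in Rhesus 7 and 243 CPM in Rhesus 11). Rhesus 6, next for SLC6A4 at 106 CPM, was not low: it held 1176 CPM of NEFH, 2397 CPM of NEFM and 2236 CPM of NEFL. INA did not share the order of NEFL, NEFM and NEFH: it was 627 CPM in Rhesus 7 and 633 CPM in Rhesus 11, and its highest value was 912 CPM in Rhesus 2, the library with the lowest TH. PRPH in VTA ranged from 0.740 CPM in Rhesus 11 to 32.1 CPM in Rhesus 8, whose SLC18A3 (43.02 CPM) was the highest of the 8. CHAT was instead highest in Rhesus 7 (17.5 CPM, against 6.29 CPM in Rhesus 8). In Rhesus 7, SLC18A3 was at 36.2 CPM and PRPH at 10.5 CPM, below the 15.3 CPM of PRPH in Rhesus 4, where SLC18A3 was at 13.5 CPM. The share of serotonin or cholinergic cells in these differences was not tested.

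**Figure D2:**
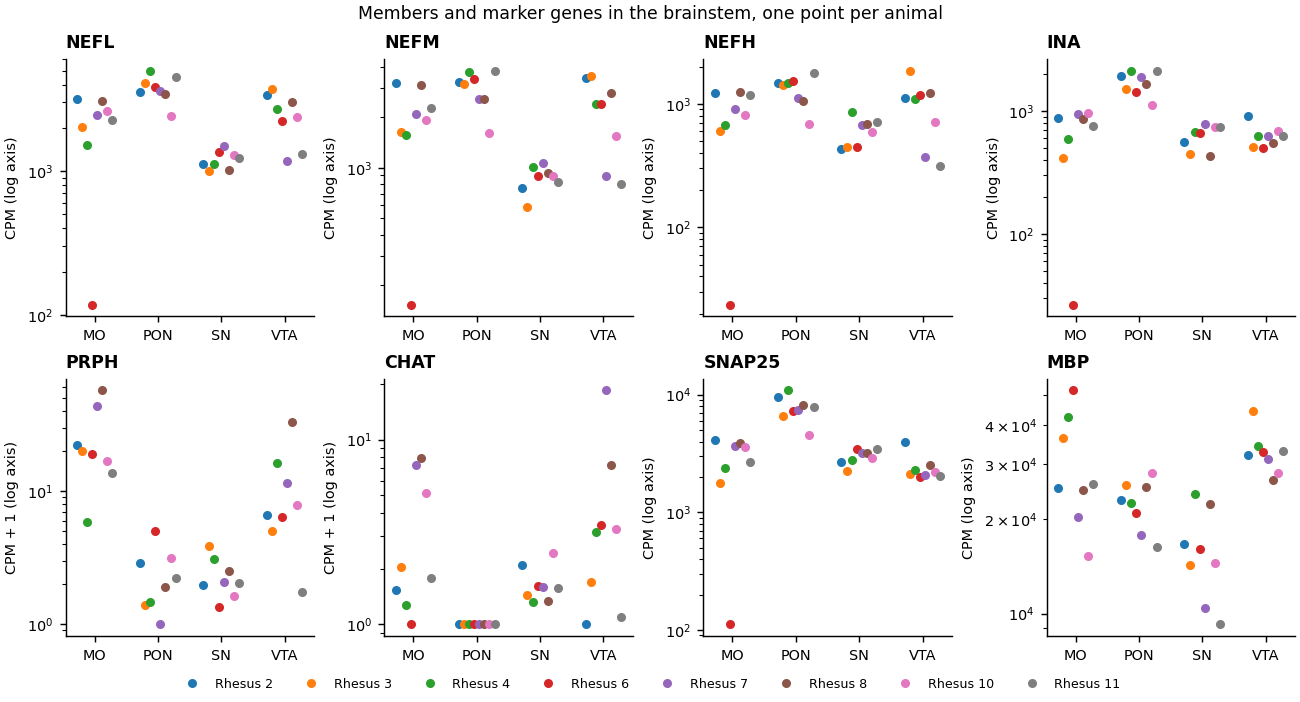
CPM (log axis; CPM + 1 for PRPH and CHAT) of the 5 members and of CHAT (cholinergic neurons), SNAP25 (neurons) and MBP (myelin) in MO, PON, SN and VTA, with 1 coloured point per animal. Rhesus 6 in MO is low for NEFL, NEFM, NEFH, INA and SNAP25 and high for MBP, while its PRPH (18.2 CPM) lies among the other animals.

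The comparison of brainstem with cortex asked how far the members differ between these parts of the brain. Against the mean of cortex, the mean of MO, PON, SN and VTA was higher for NEFM (log2FC 1.58 ± 0.20 SE, FDR = 4.9e-12), NEFH (2.58 ± 0.25, FDR = 3.09e-17) and PRPH (5.62 ± 0.47, FDR = 7.94e-21). NEFL had a log2FC of 1.00 ± 0.19 (FDR = 1.26e-06), just inside the fold limit and therefore not called. INA had 0.13 ± 0.16 (FDR = 0.475). Thus 3 of 5 members were called, all higher, where 25.6% of 16829 genes tested were called in either direction. The fitted value of PRPH rests on the 264 cortical counts named above. NEFL was called as well by DESeq2 (log2FC 1.02, FDR = 1.28e-08), by edgeR with the size factors of DESeq2 (1.02, FDR = 8.01e-07), without the MO library of Rhesus 6 (1.05) and when Rhesus 6, 7, 10 or 11 was left out whole (1.01 to 1.02). Without that MO library the log2FC was 1.63 for NEFM, 2.64 for NEFH, 5.62 for PRPH and 0.18 for INA (edgeR, FDR = 0.141), the last again not called. With MO and PON alone against cortex, NEFL was called at a log2FC of 1.36, and at 1.46 without the same library.

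PON differed from cortex in every member. The log2FC was 1.75 ± 0.23 for NEFL (FDR = 3.36e-11), 2.28 ± 0.23 for NEFM (FDR = 1.31e-15), 3.11 ± 0.28 for NEFH (FDR = 2.32e-18), 1.18 ± 0.20 for INA (FDR = 2.08e-07) and 4.00 ± 0.52 for PRPH (FDR = 3.77e-11), beside 24.9% of genes called. Of the 4 brainstem structures, PON alone had INA called. The summed neuron markers in PON (median 13352 CPM) ran from 8368 to 16733 CPM, and those in cortex had a median of 12495 CPM.

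MO differed from cortex in 3 members, beside 28.3% of genes called: NEFM (1.70 ± 0.23, FDR = 1.33e-10), NEFH (2.48 ± 0.28, FDR = 5.12e-14) and PRPH (7.97 ± 0.54, FDR = 2.29e-26). NEFL reached 0.97 ± 0.22 (FDR = 7.42e-05) with all 8 animals; it was called without the MO library of Rhesus 6 (1.16) and without Rhesus 4 (1.03). INA had -0.15 ± 0.20 (FDR = 0.52). Without the MO library of Rhesus 6 the log2FC was 1.89 for NEFM, 2.69 for NEFH and 7.94 for PRPH, all called, and 0.05 for INA (FDR = 0.785). VTA differed in 4 members, beside 28.3% of genes called: NEFL (1.17 ± 0.22, FDR = 2.29e-06), NEFM (1.86 ± 0.23, FDR = 5.78e-12), NEFH (2.74 ± 0.28, FDR = 9.45e-16) and PRPH (6.73 ± 0.52, FDR = 1.18e-22). INA had -0.25 ± 0.20 in VTA (FDR = 0.276).

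SN differed in 2 members only, NEFH (2.00 ± 0.27, FDR = 1.46e-10) and PRPH (3.80 ± 0.53, FDR = 3.92e-10), beside 28% of genes called. NEFM passed the FDR but not the fold limit (0.50 ± 0.22, FDR = 0.0401), and NEFL (0.10 ± 0.22, FDR = 0.701) and INA (-0.27 ± 0.20, FDR = 0.221) did not pass the FDR.

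**Figure D3:**
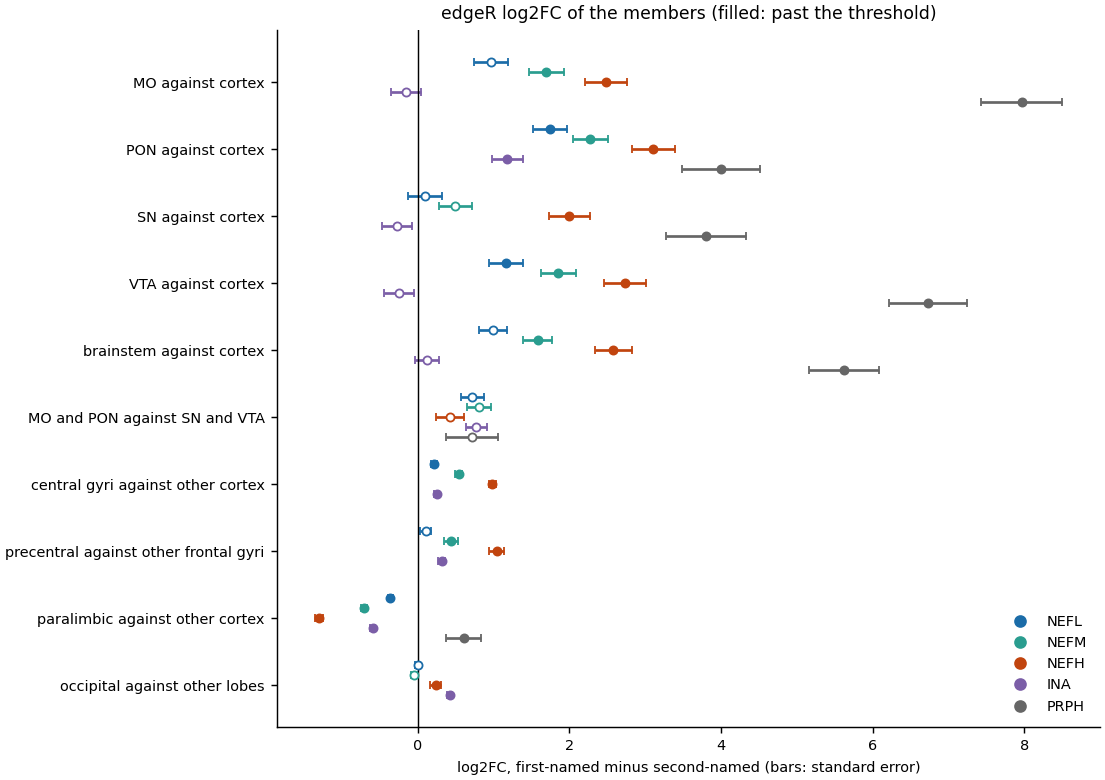
Log2FC with its standard error for each member in 10 comparisons, each written with the group of positive sign in front; filled points passed the threshold and open points did not. In the 4 comparisons of single brainstem structures with cortex, NEFH lies to the right of NEFM and NEFM to the right of NEFL, and of these 4 INA passes in PON alone.

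Within the brainstem, MO and PON together against SN and VTA gave 0 called members, beside 6.86% of genes called by edgeR. Here NEFL (0.72 ± 0.16, FDR = 6.86e-05), NEFM (0.81 ± 0.16, FDR = 1.16e-05) and INA (0.78 ± 0.14, FDR = 3.01e-06) passed the FDR alone, NEFH (0.43 ± 0.19, FDR = 0.0509) and PRPH (0.72 ± 0.34, FDR = 0.0776) did not. At an unadjusted p below 0.05 5 of 5 passed, beside 50.1% of genes, and DESeq2 called 0. Without the MO library of Rhesus 6 edgeR again called 0, and NEFH (0.53, FDR = 0.00231) passed the FDR. Without Rhesus 4, PRPH was called (1.04). MO against PON gave 2 called members, beside 11.7% of genes: PRPH was higher in MO (3.96 ± 0.48, FDR = 2.96e-11), and INA was lower there (-1.33 ± 0.20, FDR = 3.88e-08). Both were called without the MO library of Rhesus 6 (PRPH 3.94, INA -1.14). NEFL (-0.78 ± 0.22, FDR = 0.00241), NEFM (-0.58 ± 0.22, FDR = 0.0274) and NEFH (-0.63 ± 0.26, FDR = 0.0432) passed the FDR alone. Without that library NEFL (-0.59, FDR = 0.00653) again passed the FDR alone. NEFM (-0.39, FDR = 0.105) and NEFH (-0.42, FDR = 0.119) then did not pass it. SN against VTA gave 3 called members, beside 5.91% of genes, and all 3 were lower in SN: NEFL (-1.07 ± 0.22, FDR = 7.13e-05), NEFM (-1.36 ± 0.23, FDR = 8.89e-07) and PRPH (-2.93 ± 0.49, FDR = 7.22e-07). The call of NEFL between SN and VTA was lost without the VTA library of Rhesus 2 (-0.98) and without Rhesus 2, 3 or 8 (-0.97, -0.94 and -0.98). NEFH had -0.73 ± 0.26 (FDR = 0.0262) and INA -0.03 ± 0.20 (FDR = 0.94) between these nuclei.

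Oligodendrocyte and neuron markers moved with these comparisons. In brainstem against cortex, 6 of 6 oligodendrocyte markers tested were higher (median log2FC 3.50), and 3 of 8 neuron markers were called, all lower (median -0.88). The summed neuron markers ran from 534 to 7980 CPM in MO, 4543 to 7080 CPM in VTA and 5947 to 10373 CPM in SN, against 11779.5 to 13212 CPM in cortex. Set against the summed neuron markers of the same animal, NEFM exceeded its cortical ratio by 2.74 ± 0.25 (SD, log2) in MO, 2.17 ± 0.23 in PON, 1.05 ± 0.29 in SN and 2.90 ± 0.84 in VTA, each in 8 of 8 animals, Rhesus 6 included. For NEFH the same values were 3.35 ± 0.80, 3.02 ± 0.25, 2.56 ± 0.55 and 3.74 ± 1.03. INA exceeded its cortical ratio to neuron markers in 7 of 8 animals in MO (0.78 ± 0.53) and in 8 of 8 in VTA (0.95 ± 0.19). Without the MO library of Rhesus 6 (n = 7) the MO values were 2.80 ± 0.18 for NEFM, 3.62 ± 0.26 for NEFH and 0.95 ± 0.24 for INA, each higher in 7 of 7 animals. The part of cell composition in the brainstem differences was not tested.

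The proportions of the members to each other changed between regions. Relative to NEFM, and against the same ratio in the animal's cortex, NEFH was higher by 0.85 ± 0.13 (log2) in PON, 0.84 ± 0.27 in VTA, 0.66 ± 0.17 in THA, 1.13 ± 0.30 in CB and 1.51 ± 0.33 in SN, each in 8 of 8 animals. It was lower in STR (-2.10 ± 0.30), OB (-1.59 ± 0.16), the hippocampus (HIP, -0.97 ± 0.23) and the amygdala (AMY, -0.72 ± 0.18), each in 8 of 8 animals. NEFH in STR was thus 0.233 times as frequent per NEFM count as in cortex, and in SN 2.84 times. INA relative to NEFM was lower than in cortex in PON (-1.07 ± 0.25), MO (-1.95 ± 0.40), VTA (-1.94 ± 0.79) and THA (-0.89 ± 0.20) and higher in CB (0.59 ± 0.14). In MO without Rhesus 6, INA relative to NEFM stood at -1.85 ± 0.29, lower in 7 of 7 animals. NEFH relative to NEFM in MO was -0.81 in Rhesus 6 and 0.82 ± 0.14 without Rhesus 6, higher in 7 of 7 animals.

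PIT differed from cortex unequally by member. INA (336 ± 76.1 CPM) stood at 0.418 times its cortical level, NEFH at 0.259 times, NEFM at 0.0486 times and NEFL at 0.0169 times, each lower in 8 of 8 animals. INA relative to NEFM was 3.10 ± 0.49 (log2) above its cortical ratio in 8 of 8 animals, or 8.60-fold, and NEFH relative to NEFM 2.41 ± 0.53, or 5.33-fold. Set against the summed neuron markers (median 873 CPM in PIT), INA was 6.03-fold above its cortical ratio and NEFL 0.243 times it. The 3 measured anterior pituitary markers, the hormone genes PRL and CGA and the transcription factor gene POU1F1, summed to at least 28929 CPM in PIT, as its label says, and to at most 274 CPM in any other region group. In CC, the white matter between the hemispheres, neuron markers summed to 377 to 895 CPM and all 4 main members were low; relative to NEFM, NEFL stood -1.24 ± 0.66 and INA -1.49 ± 0.59 from their cortical ratios.

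**Figure D4:**
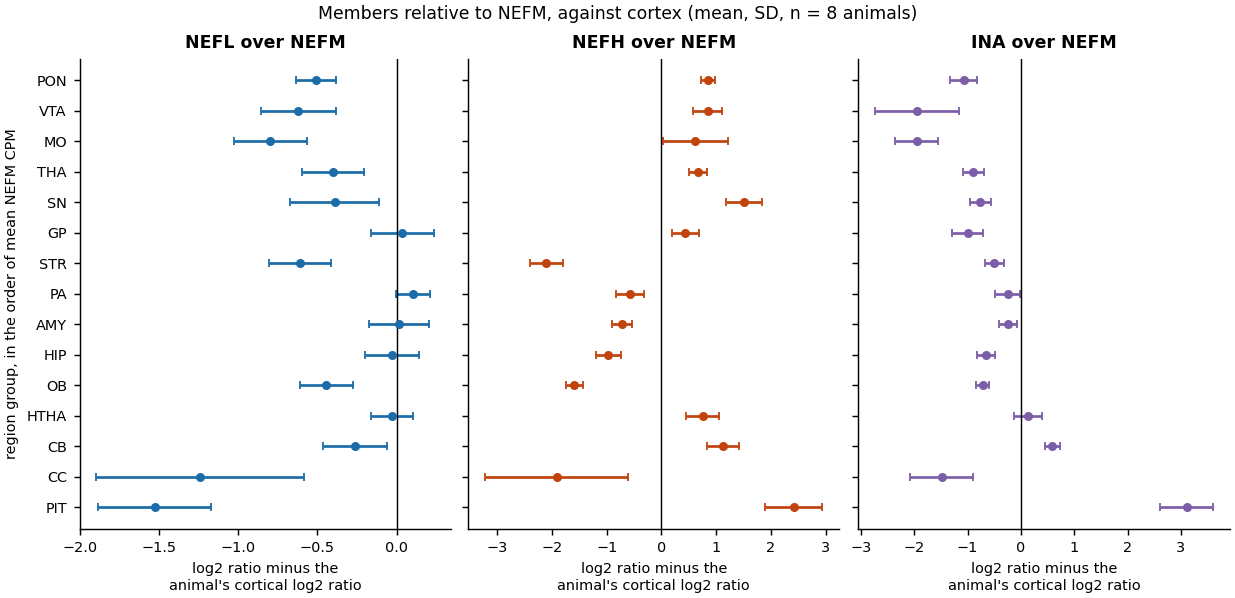
Log2 ratio of NEFL, NEFH and INA over NEFM in 15 region groups, each minus the same ratio in the animal's cortex (mean with SD over 8 animals). NEFH over NEFM reaches 2.41 in PIT, 1.51 in SN and -2.10 in STR, and INA over NEFM reaches 3.10 in PIT.

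Within the forebrain nuclei the members were graded as well. In STR, NEFM was at 772 ± 101 CPM in the putamen (PUT), 416 ± 123 CPM in the caudate nucleus (CN) and 282 ± 41.2 CPM in the accumbens nucleus (ACb). PUT was above CN by 0.94 ± 0.31 on the log2 scale and above ACb by 1.46 ± 0.27, each in 8 of 8 animals. NEFL followed with smaller steps (PUT above CN by 0.36 ± 0.26 and above ACb by 0.49 ± 0.20, each in 8 of 8 animals). NEFH was low in all 3 nuclei, at 35.1 ± 10.5, 19.1 ± 3.38 and 27.2 ± 4.23 CPM.

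In HIP, CA1 exceeded the dentate gyrus (DG) in NEFH (63.1 ± 12.5 against 31.3 ± 11.4 CPM, higher in 7 of 8 animals), and in NEFL, NEFM and INA in 8 of 8 animals by 0.47 ± 0.21, 0.34 ± 0.22 and 0.26 ± 0.15 on the log2 scale. In CB, the cerebellar cortex (CBC) exceeded the vermis (CBV) in NEFL (0.63 ± 0.19), NEFM (0.53 ± 0.19) and NEFH (0.69 ± 0.26), each in 8 of 8 animals, and in INA (0.11 ± 0.15) in 5 of 8. The globus pallidus (GP) split between animals: NEFL was at 718, 682 and 816 CPM in Rhesus 2, Rhesus 3 and Rhesus 4 and at 1498 to 2239 CPM in the other 5. NEFM and NEFH were also lowest in those 3 animals (296 to 499 CPM and 84.0 to 199 CPM). Neuron markers in GP summed to 1323 CPM in Rhesus 2, 2711 CPM in Rhesus 3 and 2842 CPM in Rhesus 4, within or below the 2133 to 3354 CPM of the others. THA was above cortex in 8 of 8 animals for NEFL (1.57-fold), NEFM (2.07-fold) and NEFH (3.29-fold), and in 5 of 8 for INA (1.12-fold).

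The 31 cortical sub-regions were compared to show how the members vary across the cortical sheet. NEFL, NEFM, NEFH and INA all differed among them (F test; FDR = 1.34e-38, 2.83e-58, 1.26e-74 and 3.95e-70), beside 75.0% of 15981 genes tested. PRPH did not pass the filter on low counts. Of the variance of log2(CPM + 1) over the cortical samples, sub-region accounted for 68.3% for NEFL, 75.9% for NEFM, 81.4% for NEFH and 78.8% for INA, and the animal for 2.22% to 7.92%, as a description.

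The superior and inferior postcentral gyri (SPCG and IPCG), which hold primary somatosensory cortex, were the top pair for all 3 chains. NEFH was at 320.3 ± 69.6 CPM in SPCG and 302 ± 35.5 CPM in IPCG, and NEFM at 988 ± 108 and 979 ± 116 CPM. In all 8 animals both gyri lay above that animal's cortical mean for each of these genes, and SPCG and IPCG could not be ordered (NEFH higher in SPCG in 5 of 8 animals). At the bottom, NEFH was at 39.3 ± 9.80 CPM in the temporal polar gyrus (TPG) and 44.1 ± 11.0 CPM in the ventromedial prefrontal cortex (vmPFC). The fold between highest and lowest sub-region was 8.20 for NEFH, 3.32 for NEFM, 2.13 for INA and 1.96 for NEFL.

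INA had a different top. The anterior superior occipital gyrus (aSOG, 972 ± 103 CPM), IPCG (969 ± 67.6 CPM) and SPCG (966 ± 114 CPM) lay within each other's spread. The other occipital gyri, pSOG and IOG, followed for INA (0.36 ± 0.14 and 0.33 ± 0.11 above the animal's cortical mean, log2, in 8 of 8 animals). Occipital cortex against the mean of the other 4 lobes was higher in INA (log2FC 0.42 ± 0.03, FDR = 9.03e-13) and NEFH (0.24 ± 0.07, FDR = 0.00392), while NEFL (0.00 ± 0.03, FDR = 0.98) and NEFM (-0.04 ± 0.04, FDR = 0.459) did not pass, beside 56.3% of genes called. The call of NEFH was lost when the animal was not a block (FDR = 0.0723). Among the 5 lobes all 4 measured members differed (F test), beside 61.5% of genes; the parietal lobe held 212 ± 33.6 CPM of NEFH against 113 ± 14.8 CPM in limbic cortex.

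**Figure D5:**
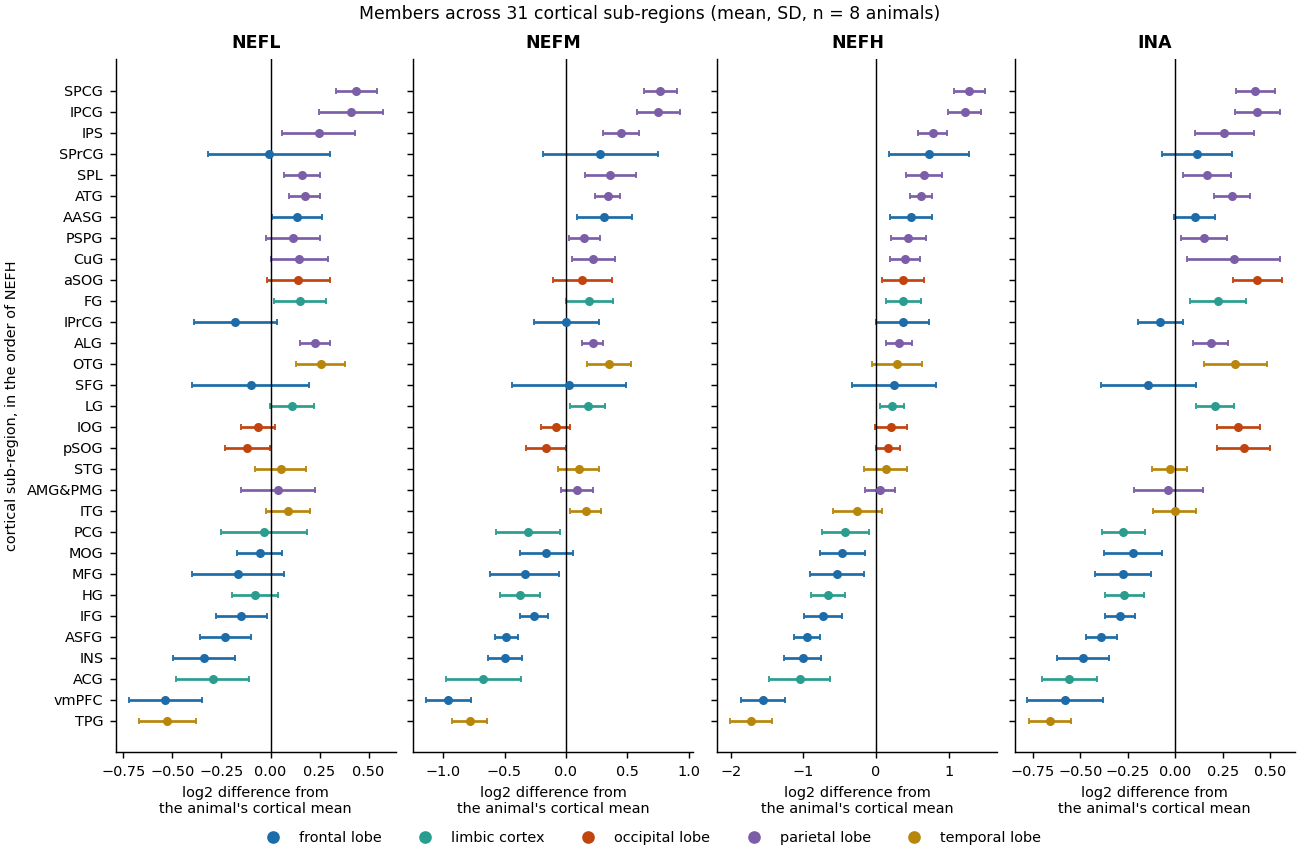
Log2 difference of each of 31 cortical sub-regions from the animal's own cortical mean (mean with SD over 8 animals), ordered by NEFH and coloured by lobe; each panel has its own scale. SPCG and IPCG are at the top and TPG and vmPFC at the bottom for NEFH (1.28, 1.22, -1.72 and -1.56), and the occipital gyri rank higher for INA than for NEFL or NEFM.

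The 4 central gyri (precentral and postcentral) hold primary motor and somatosensory cortex. They were compared with the other 27 cortical sub-regions after summing counts in each animal. As the mean over sub-regions, NEFH was at 257 ± 39.2 CPM in central gyri (182 to 308 CPM) and 133 ± 21.4 CPM elsewhere (102 to 166 CPM). Single libraries overlapped: NEFH was at 107 CPM in the superior precentral gyrus of Rhesus 10 and at 332 CPM in the anterior arcuate sulcus gyrus of Rhesus 6. Whole sub-regions overlapped too. Relative to the animal's cortical mean (log2), NEFH in the inferior precentral gyrus (IPrCG) was 0.37 ± 0.37, rank 12 of 31. Outside the set, the intraparietal sulcus (0.78 ± 0.20) and the superior parietal lobule (0.66 ± 0.25) lay above IPrCG. IPrCG ranked 19 for NEFM, 26 for NEFL and 20 for INA. For the summed counts, the test compared the sets within each animal. The log2FC of NEFH was 0.98 ± 0.05 (FDR = 5.27e-10), followed by NEFM with 0.54 ± 0.04 (FDR = 8.17e-08), INA with 0.26 ± 0.03 (FDR = 1.82e-05) and NEFL with 0.22 ± 0.04 (FDR = 0.000353). All 4 tested members were called, beside 28.8% of genes. The precentral and postcentral gyri differed in this. NEFL was at 1029.5 ± 155 CPM in precentral and 1453 ± 77.7 CPM in postcentral gyri, against 1078 ± 33.2 CPM in the other 27 sub-regions. INA was at 731 ± 70.3, 967 ± 70.5 and 723 ± 55.5 CPM in the same order, NEFM at 669 ± 180, 984 ± 64.4 and 574 ± 48.8 CPM, and NEFH at 203 ± 62.1, 311 ± 42.9 and 133 ± 21.4 CPM. PRPH was not tested at this filter.

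The precentral gyri alone gave a smaller set. Against the other 8 frontal sub-regions, NEFH (log2FC 1.04 ± 0.10, FDR = 3.33e-06), NEFM (0.44 ± 0.09, FDR = 0.00193) and INA (0.32 ± 0.05, FDR = 0.00013) were higher and NEFL (0.11 ± 0.07, FDR = 0.283) did not pass, beside 31.6% of genes called. The superior precentral gyrus (SPrCG) varied between animals, with NEFH from 107 to 376 CPM, and IPrCG was at 170.5 ± 38.9 CPM. Among the other 8 frontal sub-regions were vmPFC, the medial orbital gyrus and the insula, which also belong to the paralimbic set below. Relative to the animal's cortical mean (log2), NEFH in the anterior arcuate sulcus gyrus, also among these 8, was 0.48 ± 0.29. NEFH was 0.73 ± 0.55 in SPrCG and 0.37 ± 0.37 in IPrCG. For NEFM the values were 0.31 ± 0.23, 0.28 ± 0.47 and 0.00 ± 0.27 in the same order. IPCG exceeded IPrCG in NEFL, NEFM, NEFH and INA in 8 of 8 animals, by 0.59 ± 0.17, 0.75 ± 0.16, 0.86 ± 0.27 and 0.51 ± 0.11 on the log2 scale.

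The 7 paralimbic sub-regions (vmPFC, medial orbital gyrus, insula, TPG, hippocampal gyrus, and anterior and posterior cingulate gyrus) stood at the other end. As the mean over sub-regions, NEFH was at 69.9 ± 11.6 CPM there (48 to 84.6 CPM) and 172 ± 27.2 CPM in the other 24 sub-regions (133 to 214 CPM). Single sub-regions overlapped, as log2 differences from the animal's cortical mean of NEFH. The anterior superior (-0.95 ± 0.18) and inferior frontal gyri (-0.73 ± 0.26), outside the set, lay below the posterior cingulate (-0.42 ± 0.32) and medial orbital gyri (-0.46 ± 0.31) within it. The log2FC was -1.30 ± 0.06 for NEFH (FDR = 3.35e-10), -0.71 ± 0.04 for NEFM (FDR = 4.6e-09), -0.59 ± 0.03 for INA (FDR = 4.41e-09) and -0.36 ± 0.03 for NEFL (FDR = 3.29e-07), beside 55.3% of genes called. PRPH was tested here and had a log2FC of 0.61 ± 0.23 (FDR = 0.0364). It rests on few counts, as above, and its call was lost without Rhesus 2 (FDR = 0.0979), Rhesus 4 (0.0525), Rhesus 6 (0.0749) or Rhesus 7 (0.0700) and without the replicate block (0.559).

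Myelin genes moved with the same cortical contrasts. All 6 tested oligodendrocyte markers were higher in central gyri (median log2FC 0.81), higher in precentral than in other frontal gyri (1.53) and lower in paralimbic cortex (-1.29). The 8 neuron markers were called in both directions. In central gyri 2 were higher and 1 lower (median -0.01), and in precentral against other frontal gyri 2 were higher and 3 lower (median -0.06). In paralimbic cortex 4 were higher and 4 lower (median 0.04), from -0.54 for SNAP25 to 0.37 for SYN1, both genes of synaptic vesicle proteins or their fusion machinery. The part of myelination or cell composition in the members' differences was not tested.

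Across the 51 sub-region means of log2(CPM + 1), NEFL and NEFM had a Pearson correlation of 0.95, NEFM and NEFH 0.79, NEFL and NEFH 0.71, and INA had 0.74, 0.71 and 0.76 with NEFL, NEFM and NEFH. PRPH had -0.14 with INA and 0.31 with NEFH. Over the 31 cortical means alone, NEFM and NEFH reached 0.96 and NEFH and INA 0.91. These are descriptions; the points share animals and library depths.

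The 5 genes most like each member by this measure were, for NEFL, NEFM (0.95), MAP7D2 (0.93), CLEC2L (0.92), PGAM4 (0.92) and PGAM1 (0.92), of which the last 2 are close copies whose reads may be exchanged. For NEFM they were NEFL (0.95), HCN2 (0.91, a pacemaker channel), ATP5MC3 (0.90), MDH2 (0.89) and PGAM1 (0.89); ATP5MC3 and MDH2 are mitochondrial. For NEFH they were CDT1 (0.90), STS (0.87), DEXI (0.87), PSMD12 (0.86) and PANX2 (0.86). For INA they were the mitochondrial genes CS (0.92), COX10 (0.92) and ATP5F1A (0.91), then TAGLN3 (0.90) and CDS1 (0.90). For PRPH they were SLC6A4 (0.86), GJB2 (0.84), PGF (0.83), FGD3 (0.81) and CD5L (0.79), and the Spearman correlation with SLC6A4 was 0.19. Between 12064 and 12065 genes were ranked.

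Other genes of the neuronal cytoskeleton were described by lists of 48 genes, of which 42 were tested in brainstem against cortex. Of these, 5 were higher and 6 lower, with a median log2FC of -0.02, while the median over all genes was -0.01 and 25.6% were called. In central gyri against other cortex 6 of 44 were higher and 9 lower, where 28.8% of all genes were called. In paralimbic cortex 15 of 44 were higher and 10 lower, where 55.3% of all genes were called.

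Among the other intermediate filaments, 2 of 4 were called in brainstem, both higher; GFAP, the filament of astrocytes, had the largest log2FC (2.75 ± 0.28, FDR = 5.53e-16) and SYNM the smallest (0.48 ± 0.09, not called). Of the 6 tested genes of neurofilament turnover and phosphorylation, 2 were lower: CDK5R1, an activator of the neurofilament kinase CDK5, had -1.89 ± 0.09 (FDR = 4.37e-38), and CDK5R2, another such activator, had -1.16 ± 0.16 (FDR = 1.69e-10). Of 10 tested axonal transport motors, 2 were called, both lower: KIF5A, a kinesin known to carry neurofilaments, had -1.78 ± 0.11 (FDR = 6.07e-30), KIF5C -1.21 ± 0.08, and DYNC1I1 the largest value at 0.62 ± 0.13 (not called).

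Of 13 microtubule genes, 2 were higher and 1 lower: TUBA1A, an alpha-tubulin, had 1.57 ± 0.17 (FDR = 9.55e-15) and CRMP1 -1.02 ± 0.08 (FDR = 7.58e-21). Of 9 cytolinker and membrane skeleton genes, 1 was called, and lower: SPTBN4, a spectrin of axon initial segments and nodes, had -1.27 ± 0.10 (FDR = 5.96e-21), and DST the largest value at 0.84 ± 0.08 (not called).

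Age stage and sex were compared in each region group. Of 72 tested pairs of member and region group, 0 were called between mid-aged and young animals and 0 between females and males by edgeR at FDR below 0.1, adjusted within each region group, and a log2FC beyond 1, beside 0.0164% and 0.105% of all pairs of gene and region group. The lowest FDR was 0.248 for age stage, for NEFM in the entorhinal and perirhinal cortex (PA; log2FC 0.40 ± 0.12), and 0.249 for sex. At an unadjusted p below 0.05, 10 pairs passed for age stage (13.9%, against 5.73% of all pairs) and 2 for sex (2.78%, against 3.54%); DESeq2 called 1 pair for age stage (PRPH in VTA, log2FC -2.0, FDR = 0.0997) and 0 for sex. The 10 pairs included NEFL, NEFM and NEFH in PA, all higher in mid-aged animals, and NEFM and NEFH in SN, both lower. The share of all genes at that p was 12.3% in PA and 11.0% in SN. The other 5 pairs were NEFL in CB (4.20% of all genes), NEFH in PON (2.81%) and STR (5.46%) and PRPH in OB (1.99%), all higher in mid-aged animals, and PRPH in VTA (1.87%), lower. The brainstem-minus-cortex and central-minus-other differences of the members were also compared between age stages and sexes by 18 two-sided exact permutation tests over 4 against 4 animals. None passed; the lowest p was 0.0571 (PRPH, brainstem minus cortex, by sex; adjusted over the family 0.986), and the smallest p that the design allows is 0.0286.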

How the data were processed

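Tissue was dissected from named sub-regions and sequenced after removal of ribosomal RNA. Per the labels and the study's methods, the authors checked reads with FastQC 0.11.4, trimmed samples of poor read quality with Trim Galore 0.4.4, aligned the reads with HISAT2 2.0.5 and counted them per Ensembl gene with HTSeq 0.6.1. How HTSeq treated strand and overlapping genes is not given in the sources used here. The authors deposited raw counts of 30807 genes, of which 17572 genes could be given a symbol. The 8 midbrain RNA samples and 33 ATAC-seq samples were not analysed here.

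Counts were scaled by the trimmed mean of M-values (TMM) and tested with edgeR 4.0.16 in R 4.3.3 (glmQLFit, glmQLFTest and filterByExpr). For region groups, counts were summed within each animal and region group (128 sums). For sets of cortical sub-regions they were summed within each animal and set, and the 31 cortical sub-regions were tested unsummed. The animal was a block, since each sub-region came from the same 8 animals. Age stage was tested with sex as a covariate, and sex with age stage. SE is the size of the log2FC over the square root of F. With the animal as a block, P-values measure the spread left within animals, pooled over all sums or libraries of a fit. A library of a given region can therefore change the values of other regions. For INA in SN against cortex, edgeR's FDR was 0.221 with all libraries and 0.0702 without the MO library of Rhesus 6. For age stage and sex, P-values measure the spread between these 8 animals.

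The genes named are the members, the 5 genes most correlated with each member among those with a mean of at least 1 CPM, and the extremes of each cytoskeleton list in brainstem against cortex; KIF5C and CDK5R2 were named after their values were seen, and some listed genes are not reported here. Of 119 listed genes, 98 matched a row. The members and lists were chosen with earlier results of these data known. Logs of levels were log2(CPM + 1). Alternatives were DESeq2 1.42.0, its size factors, a filter on counts above 1 in at least 3 libraries, no replicate block, each animal left out, and single libraries left out, the last chosen after seeing the data. With an animal left out, the cortical sub-region fit kept the dispersions of the fit to all 8. The code was tested on simulated data. Exact permutation tests used scipy 1.17.1.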

Additional observations from a re-analysis of the deposited data

Results flagged for a closer look

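In 72 groups of 8 animals, the gap of the highest or lowest animal to its nearest neighbour was compared with the range of the group (Dixon's test at the 95% level). Chance flags about 1 in 20 such groups. The test marked 6 values, each the highest of its group. NEFH in PA was 165.9 CPM in Rhesus 11, with 85.2 CPM next. NEFH in HTHA was 282 CPM in Rhesus 11, with 166 CPM next, and CHAT in that library was 32.05 CPM against at most 1.68 CPM in the HTHA of the other animals. INA in OB was 428 CPM in Rhesus 7, with 322 CPM next. PRPH in PA was 2.21 CPM in Rhesus 7 (next 1.12), PRPH in HTHA was 1.68 CPM in Rhesus 10 (next 0.966), and PRPH in VTA was 32.1 CPM in Rhesus 8 (next 15.3).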

How the results depend on the processing

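Of 939 values of members under an alternative, 916 kept their direction and side of the threshold, 11 lost a call, 12 gained one and 0 changed direction, not counting PRPH in 5 cortical comparisons, where it passed the filter on low counts only under some alternatives. With the filter on counts above 1, PRPH was called among cortical sub-regions (FDR = 5.86e-06), among lobes (FDR = 0.00202) and in occipital cortex (log2FC -1.77, FDR = 0.00395) and not in precentral gyri (-1.42, FDR = 0.0530). In central gyri PRPH was called with PA added to the other cortex (-1.09, FDR = 0.0297) and not with that filter or without Rhesus 2, 3, 4 or 8 (-0.76 to -0.63). Without the replicate block, genes called fell to 536 (from 5280) for central gyri, 1387 (5243) for precentral gyri, 3454 (10257) for paralimbic cortex, 5416 (10753) among lobes and 6292 (9837) for occipital cortex, where members called were 1 in place of 2 (NEFH lost); the animals pair the samples by design, and the block changed no other call of a member than NEFH there and PRPH in paralimbic cortex. The filter on counts above 1 raised genes called in brainstem against cortex to 6568 (4307) and gave PRPH an FDR of 0.0511 in paralimbic cortex. DESeq2 called 802 pairs of gene and region group for age stage (40 with edgeR), 1 of them a member, and 999 for sex (256); without the covariate 13 were called for age stage. Leaving out 1 animal gave 3 to 927 pairs for age stage (beyond 1.5-fold without Rhesus 2, 3, 4, 6, 7, 8 or 10), 229 to 2235 for sex (highest without Rhesus 7) and 0 to 1 members for MO and PON against SN and VTA. With DESeq2 size factors 1 step of the NEFL order exceeded its spread, in place of 2. By Spearman's correlation 1, 1, 1, 0 and 0 of the 5 genes most like NEFL, NEFM, NEFH, INA and PRPH were shared. PRPH in cortex rests on 264 counts at a median depth of 10635486 counts per library, against 11563888 in MO. The cause of these shifts was not tested.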
